A study of Mus musculus with 8 samples.

Results

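Zbtb16, which encodes the zinc finger repressor PLZF, and 9 other regulator genes of spermatogonial stem cells (Sall4, Foxo1, Taf4b, Nanos2, Nanos3, Lin28a, Utf1, Neurog3 and Pax7) were examined for H3K79me2 with and without inhibition of the enzyme that writes the mark. The 10 genes were taken by name, from what is known of these cells, with earlier results of these data known. They are 10 of the 21887 protein-coding genes that RefSeq places on chromosomes 1 to 19, X and Y of the GRCm38 assembly. In the control, peaks lay on 8 of the 10 genes and covered most of the span of 7 of them. In the cultures with the inhibitor EPZ5676, a peak lay on 1 of the 10, Foxo1, over 1568 bp.

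H3K79me2 is the dimethylated form of a lysine on the globular face of histone H3. DOT1L is the methyltransferase that places it, largely behind RNA polymerase II as the polymerase moves off the start of a gene, so the mark is usually found over the first part of transcribed genes. In the testis, a small pool of undifferentiated spermatogonia keeps sperm production going by balancing self-renewal against commitment. PLZF, SALL4, FOXO1, TAF4B, NANOS2 and LIN28A are known for their parts in keeping that pool, while NEUROG3 marks cells on the way to commitment, and PAX7 and UTF1 are expressed in subsets of it.

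All groups share 1 source, testis cells of the mouse line B6.129S7-Gt(ROSA)26Sor/J, which expresses a LacZ reporter throughout the body, taken at 7 days of age. The germ cells had been kept for 2 months on SNL 76/7 feeders, a fibroblast line, in serum-free medium with GDNF (10 ng/mL) and FGF2 (0.5 ng/mL). EPZ5676, a small molecule that blocks DOT1L, was then given at 2 µM over 7 days, and the controls received vehicle. That vehicle is DMSO by the culture protocol and EtOH by the controls' sample descriptions, a conflict that the peak lists do not resolve. The series has 8 samples in 4 groups of 2 (H3K79me2 and input chromatin, each from control and from EPZ5676 cultures), and 1 peak list per condition was analysed. With 1 list per condition there was no spread between replicates and no test, the read depth was unknown, and a gene without a peak is a gene where none was called, not one shown to lack the mark. In a peak list, less mark per cell and fewer cells of a type cannot be told apart. No step that removed the feeder cells is named.

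The labelled cell type was checked against marker genes. Over all protein-coding genes, the shares with a peak were 52.7% in the control and 12.3% after EPZ5676. All 8 germ cell markers, among them Ddx4 and Dazl, had a control peak and together held 187641 covered bp. After EPZ5676, 0 of 8 had a peak, with 0 bp covered. The list's median was 16369 bp, and 18.7% of genes with 5 to 20 kb under control peaks had an EPZ5676 peak. Of 13 fibroblast markers, 8 had a control peak (55060 bp in all) and 4 had an EPZ5676 peak (8872 bp), namely Prrx1, Twist2, Fbn1 and Sparc. The fibroblast list's median was 2433 bp, and 4.68% of genes with 1 bp to 5 kb under control peaks had an EPZ5676 peak. The 4 fibroblast genes with an EPZ5676 peak lie above that class. They had from 5565 bp (Sparc) to 12557 bp (Twist2) under control peaks, in the class where the share was 18.7%. With control peaks held to the lowest −log10 p of the EPZ5676 list, 4.03, 3 of the 13 had a control peak and 4 an EPZ5676 peak. At a −log10 q of at least 2, 3 of the 13 had an EPZ5676 peak, where 1.91% of all protein-coding genes did. Col1a2, Col3a1, Vim, Dcn and Lum were at 0 in both lists. Of 12 markers of testis somatic cells, Wt1 (9155 bp) and Amh (325 bp) had a control peak, the other 10 had none, and none had an EPZ5676 peak.

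Across all protein-coding genes, a control peak covered at least 1 bp of 52.7% and an EPZ5676 peak of 12.3%, against 8 of 10 and 1 of 10 among the regulator genes. A gene was counted as marked from 1 covered base on. The groups stood further apart in how much of each gene was covered. The median share of the span under a control peak was 81.3% over the 10 genes and 2.15% over all protein-coding genes, and 89.1% over the 8 marked regulators against 32.6% over all 11528 marked genes. At least 80% of the span was covered in 5 of the 10, namely Nanos3, Neurog3, Foxo1, Zbtb16 and Lin28a, and in 4.09% of all genes. The median gene length was alike, 17368.5 bp and 17169 bp, but the lengths were not matched. Nanos2, Nanos3, Neurog3 and Utf1 are shorter than 3 kb, and Zbtb16, Foxo1, Taf4b and Pax7 are longer than 75 kb. A narrow peak can cover most of a short gene. Shares of the span were not compared between genes of like length.

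**Figure D1:**
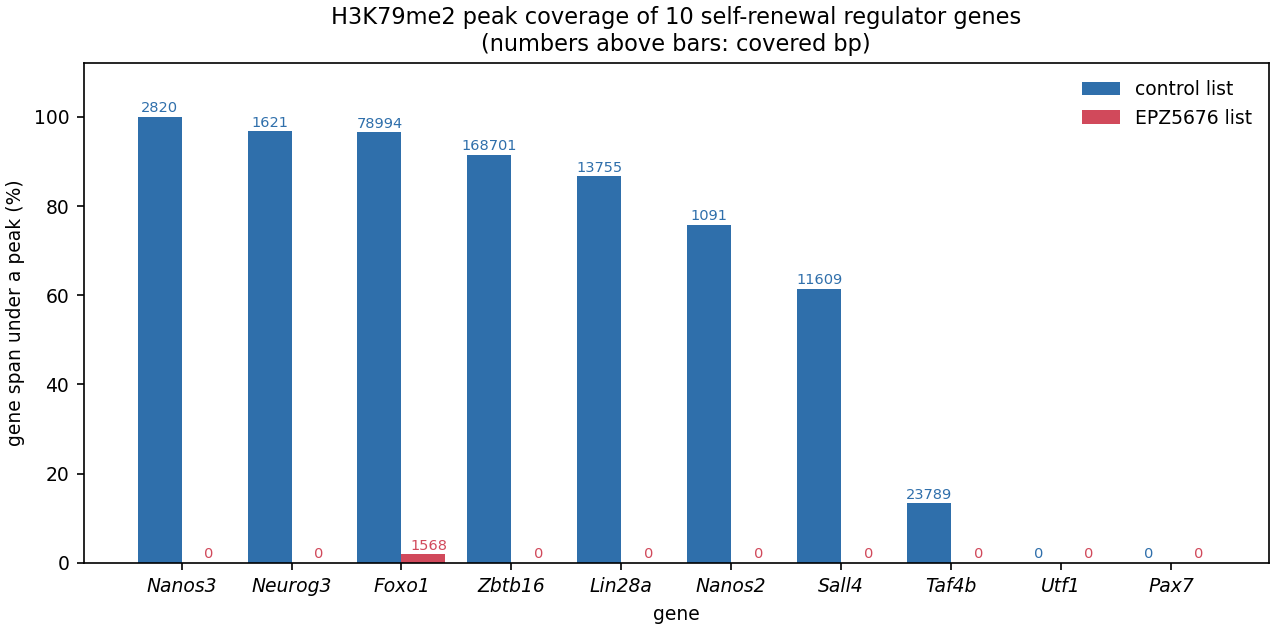
Share of each gene span (%) under a peak in the control list (blue bars) and the EPZ5676 list (red bars), 1 list per condition, with the covered bp above each bar. Nanos3 stood at 100% and Taf4b at 13.4% in the control, Utf1 and Pax7 at 0%, and the only red bar is that of Foxo1 at 1.92%.

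Zbtb16 carried the longest domain of the group. Its product PLZF recruits corepressors to DNA, and mice without it lose their germ cells progressively. The gene (chromosome 9, 48651797 to 48836225, mm10, 184429 bp) held 4 control peaks covering 168701 bp, or 91.5% of the span, and it held 0 bp after EPZ5676. In covered length it exceeded 99.7% of marked genes. The peaks were 398, 40405, 4291 and 127978 bp wide in order of coordinate, and the gaps between them, of 720, 524 and 533 bp, added up to 1777 bp in a stretch of 175 kb. Apart from these breaks peak coverage was continuous, and the last of the 4 was among the 5 widest of the 47774 control peaks.

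The signal of that domain was uneven along the gene. The fold enrichment of each deposited peak was read as a ratio of signal over background. It was 2.19, 2.74 and 2.94 in the first 3 peaks and 5.11 in the widest. That widest peak reached 4371 bp past the high-coordinate end of the span. The lowest 13951 bp of the span were bare. Beyond the high-coordinate end, 24031 of the 62987 bp to the next gene, the serotonin receptor gene Htr3a, were also under control peaks, including those 4371 bp. Htr3a itself had 655 bp covered. A second protein-coding gene, Gm32280 (4607 bp), lies inside Zbtb16 and was covered throughout by the 40405 bp peak, so those bases cannot be given to either gene. With them left out, Zbtb16 kept 164094 bp.

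The nearest EPZ5676 peak lay 54.3 kb from Zbtb16, inside Nnmt, the nicotinamide N-methyltransferase gene, and was 331 bp wide with a fold of 2.71. Nnmt had no control peak. Over all autosomal protein-coding genes without an EPZ5676 peak, the distance to the nearest one had a median of 155 kb. Its quartiles were 64.6 and 361 kb, a background for the distances of the other regulators below as well. Of the 726 genes with over 50 kb under control peaks, the class of Zbtb16 and Foxo1, 63.6% had an EPZ5676 peak. The 5 genes nearest to Zbtb16 in length and in control-covered length, a likeness over 2 control measures, were Jarid2, Mrtfa, Med13l, Cmip and Denn2b. All 5 had EPZ5676 coverage, of 461 bp in Jarid2, a Polycomb cofactor gene, 630 bp in Mrtfa, 1326 bp in Denn2b, 5579 bp in Cmip and 11435 bp in Med13l, a Mediator kinase module gene. Their control coverage ran from 137680 to 161821 bp, below that of Zbtb16 in each case.

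Foxo1 was the only one of the 10 with a peak in both lists. FOXO1 is a forkhead transcription factor that PI3K-AKT signalling keeps out of the nucleus, and it is needed to maintain spermatogonial stem cells. The gene (chromosome 3, 52268337 to 52350109, 81773 bp) had 78994 bp covered in the control, 96.6% of its span. A single peak of 78012 bp made up 98.8% of that coverage, with a fold of 6.61 that exceeded 99.2% of control peaks, and 3 further peaks of 432 to 593 bp with folds of 2.05 to 2.21 lay at the far end. The main peak began 365 bp downstream of the gene start.

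After EPZ5676, 2 peaks were called within that domain. The first was 1381 bp wide, from 6006 to 7386 bp downstream of the start, and the second was 187 bp wide and began 56768 bp downstream. Together they covered 1568 bp, equal to 2.01% of the 78012 bp peak, and over the whole control list 1.72% of covered bases were covered again. The first was wider than 96.1% of EPZ5676 peaks. Their folds of 2.76 and 2.83 exceeded 52.0% and 70.0% of EPZ5676 peaks, beside a list median of 2.75, and their −log10 q values were 1.42 and 1.52 beside a median of 1.43. At a −log10 q of at least 2 neither passed, and 1.91% of protein-coding genes then had an EPZ5676 peak and 48.4% a control peak. Fibroblast markers had EPZ5676 peaks as well, in the numbers given above, and their part in the Foxo1 peaks was not tested.

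Foxo1 and Zbtb16 were 2 of only 9 protein-coding genes longer than 75 kb with at least 90% of the span covered in the control, which is 0.269% of the 3349 genes of that length. This class was drawn after its values had been seen. It also held Dmrt1, a regulator of germ cell commitment (97.8% covered), and Foxo3, a relative of Foxo1 (95.2%), beside Zfand3, Ankrd11, Lrrc8d, Hpcal1 and Zfp644. Of the 9, Zbtb16, Dmrt1, Foxo3 and Lrrc8d had no EPZ5676 peak, and the 5 others (55.6%) had between 151 bp (Zfp644) and 6985 bp (Ankrd11).

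**Figure D2:**
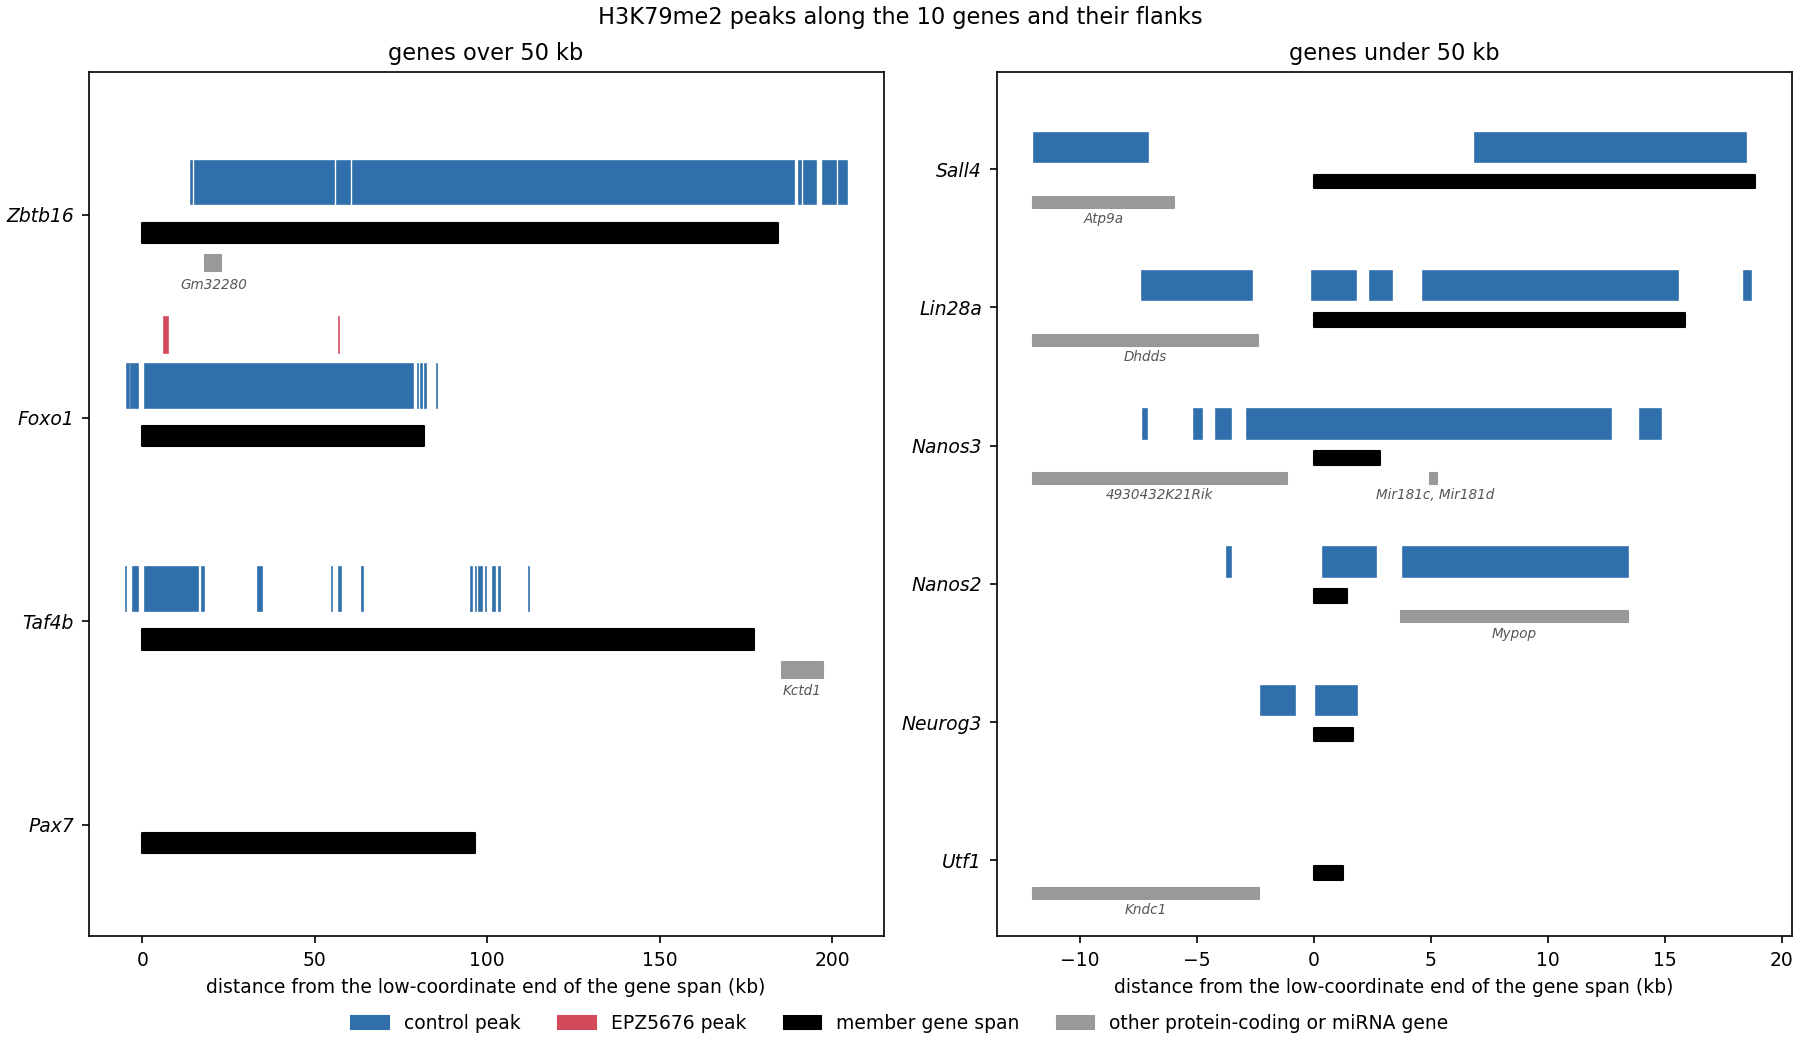
Control peaks (blue) and EPZ5676 peaks (red) along the 10 genes (black) and flanks, with neighbouring protein-coding and miRNA genes in grey, by distance in kb from the low-coordinate end of each span. Zbtb16 and Foxo1 were covered nearly end to end, Taf4b had 1 wide peak at its low end and 12 narrow ones, and Pax7 and Utf1 had none.

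Taf4b had a different layout, with a strong peak at one end and scattered narrow ones. TAF4B is a germ-cell-enriched subunit of TFIID, the factor that assembles polymerase II at promoters, and males without it lose their stem cells with age. The gene (chromosome 18, 14783201 to 14960424, 177224 bp) is nearly as long as Zbtb16 but had 23789 bp covered in the control, 13.4% of its span, and 0 bp after EPZ5676. The peak nearest the low-coordinate end was 15518 bp wide, began 479 bp inside the span and had a fold of 7.06, the highest on any of the 10 genes and above 99.6% of control peaks.

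The other 12 Taf4b peaks were 244 to 1677 bp wide with folds of 1.94 to 2.52 and covered 8271 bp between them. They reached to 65.1 kb from the high-coordinate end, beyond which no peak was called. When control peaks had to reach that −log10 p of 4.03, Taf4b kept 16613 bp, and 44.7% of all genes stayed marked. The nearest EPZ5676 peak lay 49.9 kb away in Kctd1. Of genes with 20 to 50 kb under control peaks, as Taf4b has, 49.6% carried an EPZ5676 peak. Among the other 16 TFIID subunit genes, each of which had a control peak, Taf4 alone had EPZ5676 coverage, of 4678 bp beside 43929 bp in the control, and 0 of the 16 had any at a −log10 q of at least 2. Their median control coverage was 3382 bp, and Taf3 had the longest, of 88636 bp. For genes with 1 bp to 5 kb under control peaks, where that median lies, the share with an EPZ5676 peak was 4.68%. Taf4 itself lies in the class of 20 to 50 kb, where the share was 49.6%.

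Sall4 and Lin28a, both also known from pluripotent cells, were covered over most of their short spans. SALL4 is a zinc finger factor that binds PLZF and the NuRD corepressor complex. Sall4 (chromosome 2, 168748332 to 168767201, 18870 bp) had 1 control peak of 11609 bp, 61.5% of the span, with a fold of 4.49, and 0 bp after EPZ5676. The peak left the lowest 6846 bp bare and reached close to the high-coordinate end, where it also covered 644 bp of the long noncoding RNA gene Gm14261. LIN28A is an RNA-binding protein that blocks maturation of let-7 microRNAs. Lin28a (chromosome 4, 134003330 to 134019196, 15867 bp) had 3 control peaks of 1926, 994 and 10945 bp over 13755 bp, 86.7% of the span, and 0 bp after EPZ5676. The widest, with a fold of 4.50, lay over the RefSeq start of the gene. The other 2, with folds of 2.57 and 2.63, lay toward the end of the gene. Among genes with 5 to 20 kb under control peaks, as these have, 18.7% carried an EPZ5676 peak. The nearest ones were 186 kb (in Zfp64) and 158 kb (in Cep85) from Sall4 and Lin28a.

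The genes of the RNA-binding proteins NANOS2 and NANOS3, which hold germ cells undifferentiated by repressing target mRNAs with the CCR4-NOT deadenylase, are short and were covered in different ways. Nanos2 (chromosome 7, 18987524 to 18988962, 1439 bp) had 1091 bp covered in the control, 75.8% of its span, by 1 peak of 2332 bp with a fold of 3.34. That peak ran 1241 bp past the end of the gene but stopped before the next gene, Mypop, which lies 2277 bp away and was itself 93.4% covered. Nanos3 (chromosome 8, 84173733 to 84176552, 2820 bp) was covered from end to end by 1 peak of 15565 bp with a fold of 5.13. Neither gene had an EPZ5676 peak, and the nearest were 394 kb (in Ercc2) and 106 kb (in Rfx1) away. Of genes with 1 bp to 5 kb under control peaks, the class of Nanos2, Nanos3 and Neurog3, 4.68% had one. Nanos1, the remaining relative, had 451 bp covered in the control (11.5%).

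The Nanos3 peak was shared with 3 other genes. It ran 2876 bp past the end of Nanos3 into 4930432K21Rik, of which it covered 1741 bp, and 9869 bp upstream of the Nanos3 start, over the microRNA genes Mir181d and Mir181c. Between Nanos3 and Zswim4, the next protein-coding gene on that side, 26317 of 34389 bp were under control peaks. Which transcript the mark followed cannot be read from a peak list. The mature microRNAs under the peak are shown because they are the neighbours closest to the Nanos3 start; sequences are from RefSeq (GRCm38.p6), 5′ to 3′, with the seed (bases 2 to 8) in capitals.

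mmu-miR-181c-5p, chr8:84178924-84178945, minus strand: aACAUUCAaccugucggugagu
mmu-miR-181d-5p, chr8:84178759-84178781, minus strand: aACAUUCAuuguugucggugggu
mmu-miR-181c-3p, chr8:84178885-84178906, minus strand: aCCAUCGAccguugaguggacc
mmu-miR-181d-3p, chr8:84178720-84178740, minus strand: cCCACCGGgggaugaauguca

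The 5p arms of both have 1 seed, ACAUUCA, and the 3p arms differ, with CCAUCGA and CCACCGG. Both microRNA genes lie on the same strand as Nanos3, and each was covered over its whole length in the control and over 0 bp after EPZ5676.

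Neurog3, which encodes a basic helix-loop-helix factor of progenitors near commitment, was also marked. The gene (chromosome 10, 62133090 to 62134763, 1674 bp) had 1 control peak of 1785 bp over 96.8% of its span, with a fold of 2.53, and the highest fold was lower in 21.3% of marked genes. The peak began 53 bp after the start and ended 164 bp past the gene, and a separate control peak lay upstream. No EPZ5676 peak lay nearer than 352 kb.

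Utf1 and Pax7 had no peak in either list, as did 45.2% of protein-coding genes. Without control coverage, 4.53% of genes had an EPZ5676 peak. UTF1 is a chromatin protein of undifferentiated spermatogonia and embryonic stem cells. Utf1 (chromosome 7, 139943856 to 139945112, 1257 bp) lay 88.5 kb from the nearest control peak, at Tubgcp2, and its next protein-coding neighbours, Kndc1 and Spef1l, were unmarked. PAX7 is a paired-box factor found in a rare subset of spermatogonia and in muscle satellite cells. Pax7 (chromosome 4, 139737059 to 139833530, 96472 bp) lay 103 kb from the nearest control peak, and its neighbours Tas1r2 and Klhdc7a were unmarked. Over all unmarked genes that distance had a median of 74.2 kb and quartiles of 19.1 and 287 kb, so both genes lay within the usual range.

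Both shares differed with gene length. Of the 3399 genes of up to 3 kb, where Nanos2, Nanos3, Neurog3 and Utf1 belong, 14.7% had a control peak and 0.53% an EPZ5676 peak. Nanos2, Nanos3 and Neurog3 thus belong to a small share of such genes in the control, whereas nearly all genes of that size lacked an EPZ5676 peak. For genes over 75 kb, where Zbtb16, Foxo1, Taf4b and Pax7 belong, the shares were 67.0% and 38.3%. For genes of 3 to 20 kb, the class of Sall4 and Lin28a, they were 51.8% and 3.25%, and for genes of 20 to 75 kb, which none of the 10 is, 65.8% and 16.7%.

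The position of the mark relative to the gene start could be placed for 7 of the 10 genes, which have a start in the RefSeq promoter table (Foxo1, Nanos2, Nanos3, Lin28a, Utf1, Neurog3 and Pax7); Zbtb16, Sall4 and Taf4b have no entry. Among 7415 marked protein-coding genes with a single listed start, the start itself was under a control peak in 11.8%, and coverage was highest 1400 bp downstream, where 82.5% were covered. The first covered base lay a median of 356 bp downstream (quartiles 153 and 707 bp). Foxo1 at 365 bp and Nanos2 at 348 bp sat at that median, and Neurog3 at 53 bp lay nearer than most. Lin28a and Nanos3 were covered at the start itself. The Lin28a peak reached only 67 bp upstream of it, while that of Nanos3 reached 9869 bp. Of the 875 genes with a covered start, 94, Nanos3 included, reached at least that far. The Lin28a span runs 380 bp upstream of its listed start, so the outer end of that span was bare. After EPZ5676, at most 2.52% of the 7415 genes were covered at any one distance.

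**Figure D3:**
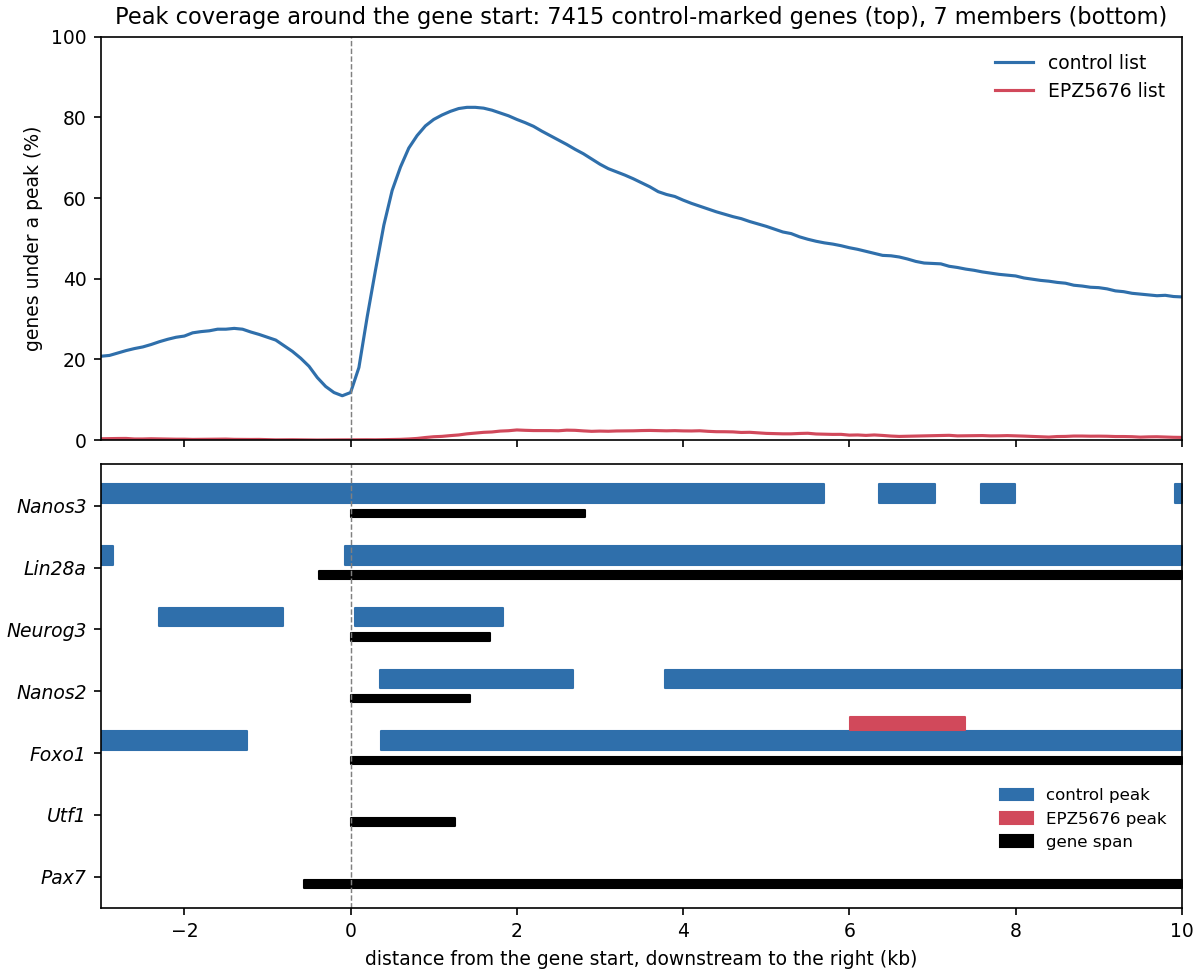
Top, share (%) of 7415 control-marked genes under a control (blue) or EPZ5676 (red) peak by distance from the gene start in kb, in steps of 100 bp; bottom, peaks on the 7 members with a listed start, spans in black. The common curve dips at the start and is highest 1400 bp downstream, and Nanos3 and Lin28a are covered where the curve dips. The Lin28a span extends upstream past the edge of the peak at its start.

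Promoter windows are shown for 5 genes to set these edges against the sequence: the fully covered Nanos3, the partly covered Lin28a, Foxo1 and Nanos2, whose peaks began after the window, and the unmarked Utf1. Each runs from 250 bases before to 50 bases after the start, from RefSeq (GRCm38.p6), 5′ to 3′ on the strand of the gene, with bases under a control peak in capitals.

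Nanos3, chr8:84176503-84176802, minus strand: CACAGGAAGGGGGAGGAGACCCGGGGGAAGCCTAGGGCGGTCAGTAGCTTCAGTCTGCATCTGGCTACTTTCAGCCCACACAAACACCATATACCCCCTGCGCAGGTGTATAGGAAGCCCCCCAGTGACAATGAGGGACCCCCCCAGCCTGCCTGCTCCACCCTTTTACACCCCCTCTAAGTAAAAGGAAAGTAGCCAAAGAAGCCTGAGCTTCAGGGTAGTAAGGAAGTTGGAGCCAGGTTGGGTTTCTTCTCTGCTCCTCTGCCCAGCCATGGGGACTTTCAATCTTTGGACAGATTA
Lin28a, chr4:134018767-134019066, minus strand: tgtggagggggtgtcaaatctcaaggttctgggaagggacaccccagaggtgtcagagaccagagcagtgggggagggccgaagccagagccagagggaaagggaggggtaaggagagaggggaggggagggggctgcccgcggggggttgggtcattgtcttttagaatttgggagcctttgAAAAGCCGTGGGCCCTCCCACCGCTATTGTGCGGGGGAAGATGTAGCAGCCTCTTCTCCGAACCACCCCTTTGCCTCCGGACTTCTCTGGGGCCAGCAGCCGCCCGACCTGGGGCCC
Foxo1, chr3:52268087-52268386, plus strand: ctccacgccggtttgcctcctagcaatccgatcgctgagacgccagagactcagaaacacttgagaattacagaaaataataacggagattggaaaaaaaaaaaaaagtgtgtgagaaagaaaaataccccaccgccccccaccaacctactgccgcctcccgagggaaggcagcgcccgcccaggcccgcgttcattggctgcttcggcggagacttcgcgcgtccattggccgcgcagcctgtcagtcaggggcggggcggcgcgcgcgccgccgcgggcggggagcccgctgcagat
Nanos2, chr7:18987274-18987573, plus strand: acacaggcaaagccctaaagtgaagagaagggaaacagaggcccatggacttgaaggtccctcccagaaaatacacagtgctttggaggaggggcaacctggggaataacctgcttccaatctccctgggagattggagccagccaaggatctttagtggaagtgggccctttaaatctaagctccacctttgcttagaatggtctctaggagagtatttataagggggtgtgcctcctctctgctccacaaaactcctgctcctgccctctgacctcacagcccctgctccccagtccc
Utf1, chr7:139943606-139943905, plus strand: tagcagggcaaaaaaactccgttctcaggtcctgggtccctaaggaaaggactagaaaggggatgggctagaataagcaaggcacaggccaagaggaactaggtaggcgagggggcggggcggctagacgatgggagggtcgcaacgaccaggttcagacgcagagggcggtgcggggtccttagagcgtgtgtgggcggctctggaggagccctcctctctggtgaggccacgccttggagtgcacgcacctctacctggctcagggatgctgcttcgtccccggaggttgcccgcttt

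All 300 bases of Nanos3 were covered, as in 10.1% of marked genes, and the last 117 bases of Lin28a, from 67 before the start onward. The windows of Foxo1 and Nanos2 held 0 covered bases, as in 83.6% of marked genes. That of the unmarked Utf1 also held 0, as in 99.7% of genes without a control peak.

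The promoters differed in base composition. The CpG ratio, observed over the number that the window's C and G content gives, was 1.1 in Foxo1 (31 CpGs, higher than in 97.3% of the 14731 promoters), 0.351 in Lin28a, 0.131 in Nanos3 and 0 in Nanos2, which had no CpG at all. Marked genes had a median of 0.796 and unmarked genes of 0.218. The windows of the marked Nanos2, Nanos3, Lin28a and Neurog3 lay below the lower quartile of marked genes, 0.636. Neurog3 (0.547), Utf1 (0.615) and Pax7 (0.581) lay close together although only the first was marked. The GC box GGGCGG, searched on both strands with overlaps counted, occurred 5 times in Foxo1, 4 times in Utf1 and once each in Nanos3, Lin28a and Pax7, and in 45.3% of all 14731 windows at least once. TATAAA, searched likewise, occurred once in Nanos2 and in none of the other 6, and in 14.3% of all windows. CCAAT occurred 3 times in Foxo1, 2 times in Nanos2 and once in Neurog3, and in 39.6% of all windows. These are matches of letters, not sites.

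The widest peaks were not the strongest. The 2 widest peaks, of Zbtb16 (127978 bp) and Foxo1 (78012 bp), had folds of 5.11 and 6.61, while the strongest, of Taf4b, was 15518 bp wide. The leading peaks of Nanos3, Sall4 and Lin28a were close to each other, at 10945 to 15565 bp and folds of 4.49 to 5.13. Nanos2 and Neurog3 were the narrowest, at 2332 and 1785 bp, although each covered most of its short gene. The median of the highest control fold per gene was 4.81 over the 8 marked genes and 3.33 over all marked genes.

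**Figure D4:**
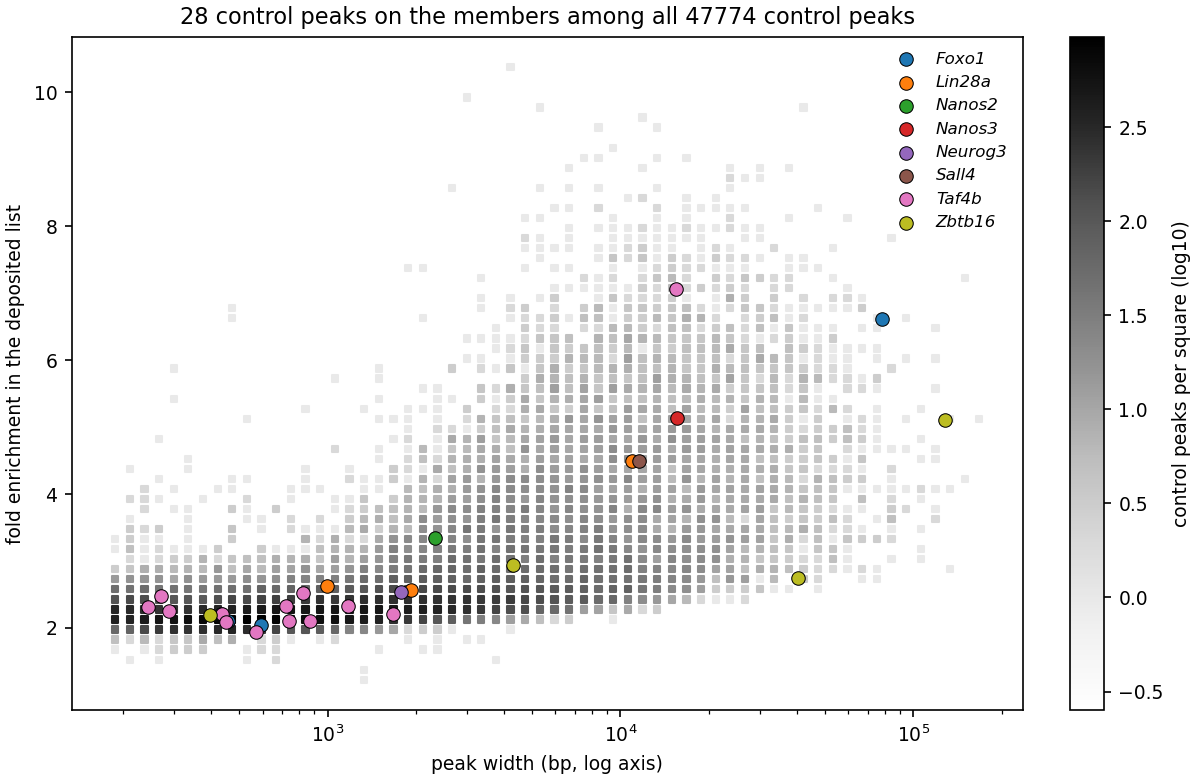
Width (bp, log axis) and fold enrichment of the 28 control peaks on the 8 marked genes (coloured points) over the density of all control peaks (grey squares). Zbtb16 and Foxo1 lie at the wide edge, Taf4b has 1 strong peak at a fold of 7.06 and 12 at folds of 2.52 or less.

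Relatives of the same families differed in the control. Sall1 (12601 bp, 74.5%) and Sall3 (15500 bp, 77.4%) were covered over more of their spans than Sall4 (61.5%), and Sall2 over 887 bp. Foxo6 (91.7%) and Foxo3 were covered nearly throughout, and the X-linked Foxo4 over 1695 bp. Lin28b had 19812 bp covered, 18.1% of its longer span. Neurog1, Neurog2 and Pax3 had no peak. None of these relatives had an EPZ5676 peak, Taf4 being the one family member that did. Sall2, Sall3, Neurog1, Neurog2 and Pax3 were added after other results had been seen.

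The genes with which these regulators act were mostly marked in the control, and their lists differed in how many had an EPZ5676 peak. In 7 of 8 lists every gene had a control peak, where 52.7% of all protein-coding genes did. Of 11 PLZF corepressors, partners and targets (median 23890 bp covered, against 602 bp over all genes), 5 had an EPZ5676 peak, among them Cul3, Hdac4, Ncor1 and Rara, where 19.3% of all marked genes did and 49.6% of those with 20 to 50 kb under control peaks, the class of the list's median. At a −log10 q of at least 2, 0 of the 11 had one, and with at least 500 bp covered, 3. The longest coverage was in Hdac4, a class II deacetylase gene (162936 bp in the control and 2600 bp in the EPZ5676 list). Ddit4, a PLZF-activated inhibitor of mTORC1, was 100% covered in the control and had 0 bp after EPZ5676.

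Of 13 genes of SALL1 and the NuRD complex, which binds SALL4 (median 17369 bp in the control), 3 had an EPZ5676 peak. They were the scaffold subunit genes Gatad2a (76943 and 4398 bp) and Gatad2b (53999 and 4204 bp) and the deacetylase gene Hdac2 (17369 and 1393 bp). Among genes with 5 to 20 kb under control peaks, the class of that median, 18.7% had an EPZ5676 peak. Gatad2a and Gatad2b lie in the class of over 50 kb, where 63.6% had an EPZ5676 peak. Of 15 FOXO and PI3K-AKT genes (median 24552 bp), 9 had one, among them Rptor, of mTORC1, which had the longest control coverage of the list (157284 and 3403 bp). The median of the FOXO list lies in the class of 20 to 50 kb, where the share was 49.6%. At a −log10 q of at least 2 the 9 became 2, and with at least 500 bp covered 4.

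Of 15 genes of NANOS1, PUMILIO, DND1 and CCR4-NOT (median 13852 bp), 7 had an EPZ5676 peak, the longest in Cnot1, the scaffold of the deadenylase (32513 and 4156 bp), and Cnot2 (75285 and 2876 bp). For genes with 5 to 20 kb under control peaks, where the list's median lies, the share was 18.7%. Cnot1 and Cnot2 lie in longer classes, of 20 to 50 kb (49.6%) and over 50 kb (63.6%). At a −log10 q of at least 2 the 7 became 2, and with peaks of at least 500 bp 4. Of 12 genes of LIN28B and let-7 processing (median 25090.5 bp), 3 had an EPZ5676 peak, and 1 at a −log10 q of at least 2. The 3 were Ago2 (46507 and 10048 bp), Dicer1 (33959 and 1945 bp) and Igf2bp1 (30369 and 525 bp). In the class of 20 to 50 kb, where this median lies, the share was 49.6%. Trim71, a let-7 target that encodes a stem cell ubiquitin ligase, was 98.9% covered in the control (52523 bp) and had 0 bp after EPZ5676.

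Genes of the exit from self-renewal carried the mark as well. All 11, among them Kit, Sohlh1 and Stra8, had a control peak (median 10672 bp), and Dnmt3a alone had EPZ5676 coverage, of 152 bp. Dmrt1 led them with 96578 bp, ahead of Dnmt3a with 29663 bp. The share with an EPZ5676 peak was 18.7% in the class of the list's median, 5 to 20 kb under control peaks. Of 17 other genes of undifferentiated spermatogonia, 13 had a control peak (median over the 17 of 2280 bp), led by Glis3 (325647 bp) and Gfra1 (96347 bp), and Eomes, Shisa6, Tbxt and Tspan8 had none. EPZ5676 peaks lay on 4, Adgra3 (1607 bp), Shisa6 (1039 bp), Itga6 (762 bp) and Glis3 (702 bp). At a −log10 q of at least 2 they lay on 1 of the 17. The median over the 17 lies in the class of 1 bp to 5 kb under control peaks, where the share was 4.68%. None of the genes with an EPZ5676 peak lies in that class. Glis3 belongs to the class of over 50 kb (63.6%), and Adgra3 and Itga6 to that of 20 to 50 kb (49.6%). Shisa6 belongs to the genes without control coverage (4.53%). Some genes stand in several lists (Kit, Hdac1, Dmrt1 and Dnd1). Cul3, Ncor1, Rara, Ddit4, Hdac2, Igf2bp1 and Itga6 were named after their values had been seen.

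**Figure D5:**
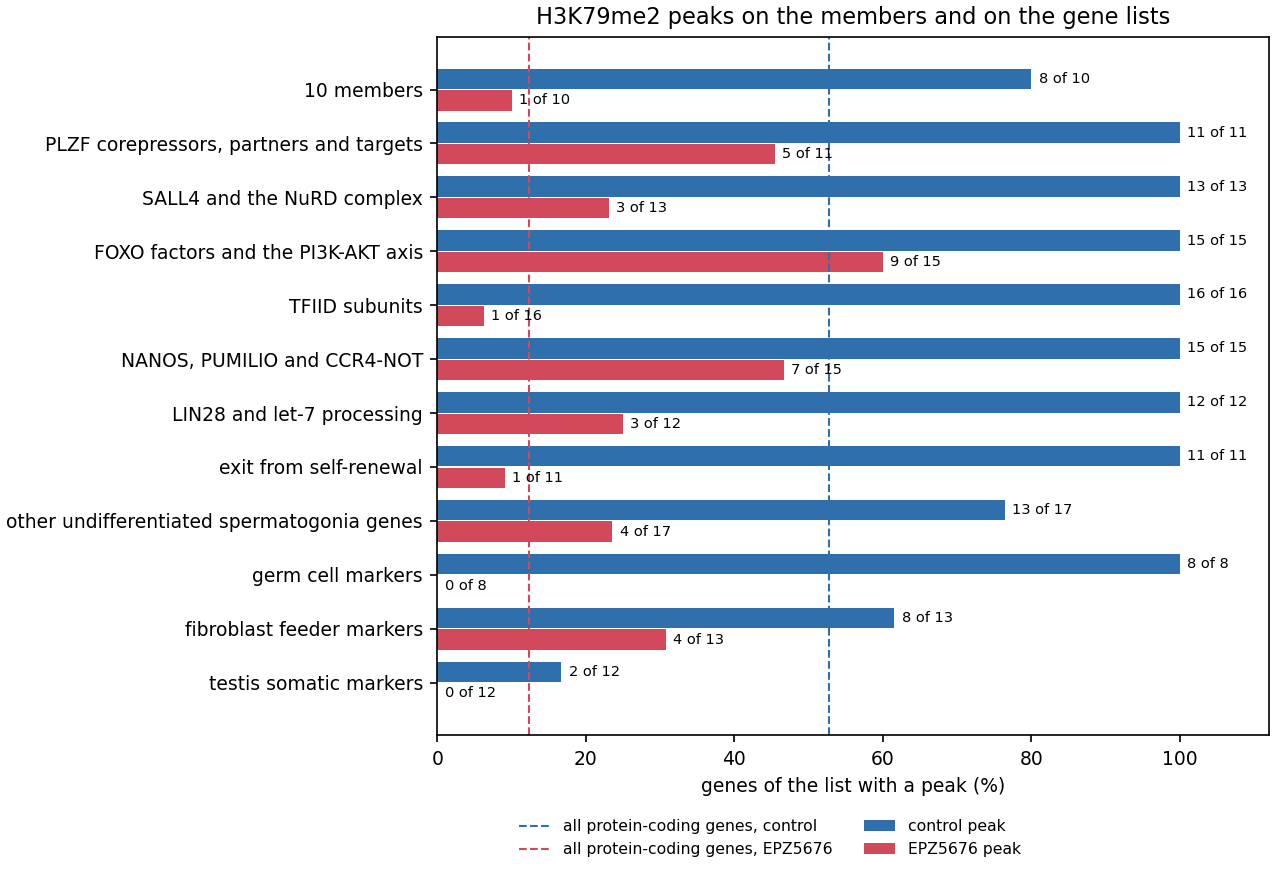
Share (%) of the 10 genes and of each gene list with a control peak (blue bars) or an EPZ5676 peak (red bars), counts at the bar ends; dashed lines mark all protein-coding genes at 52.7% and 12.3%. The 10 genes stand at 8 and 1, TFIID at 16 and 1 of 16, and the FOXO and PI3K-AKT list at 15 and 9 of 15.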

How the data were processed

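Chromatin of crosslinked cells had been precipitated with an antibody to H3K79me2. The 2 deposited peak lists, 1 for control and 1 for EPZ5676 cultures, are each recorded under replicate 1 of their group. The submitters' processing notes name bcl2fastq (2.20.0.422), Trimmomatic and deepTools, and the build mm10. Aligner, peak caller, use of the inputs and any pooling of replicates: not given in the sources used here. The authors deposited 4 values for each peak: a score, a fold (a ratio of signal over background), a −log10 p-value and a −log10 q-value. In the deposited lists the score equals 10 times that q term, cut to a whole number, apart from 4 control peaks. Columns with per-sample values that matched no sample numbered 0.

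Covered bases per gene span were computed with Python 3.11.15, pandas 2.3.3 and numpy 2.4.6, after a check on simulated intervals, and drawn with matplotlib 3.10.9. Spans, promoters and microRNAs came from RefSeq (GRCm38.p6, the assembly mm10 names). All 10 regulators and 139 listed genes matched, Tbxt through a synonym, and promoters matched for 7 of 10. Exons and introns were not used here. The named genes were the 10 regulators, genes sharing a peak with one, the gene holding the nearest EPZ5676 peak, the 5 genes nearest Zbtb16 in length and control coverage, and from each partner list the 2 longest covered in each condition and those without a control peak. Some of the genes that this rule takes are not reported here. Members and lists were chosen with earlier results of these data known. The alternatives raised the q, p, width or overlap needed, widened the spans, or left out bases shared with another protein-coding gene.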

Additional observations from a re-analysis of the deposited data

How the results depend on the processing

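Of 7 alternatives, none changed the 8 regulator genes with a control peak. The single gene with an EPZ5676 peak, Foxo1, became 0 at a −log10 q of at least 2 and 0 when 10% of the span had to be covered. All protein-coding genes with an EPZ5676 peak numbered 2697, and 418 at that q, 80 at 10% of the span, 1701 with at least 500 bp covered and 1441 with peaks of at least 500 bp. Listed genes with an EPZ5676 peak numbered 37 of 139, and 12 at that q and 1 at 10% of the span. The median control-covered length over the 10 genes was 7214.5 bp, and 11610.5 bp with spans widened by 5 kb, which takes in flanks. Among single genes and lists, 222 of 254 values stayed within 1.5 times. These include values of 0 that stayed at 0, which a stricter setting could not have lowered. The cause of the other moves was not tested. Leaving out a replicate could not be run with 1 list per condition. No paired analysis was possible because 1 list per condition was analysed. Without read depth, weak residual mark cannot be told from none.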
